A study of Mus musculus with 18 samples.

Results

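A set of 167 array probes whose signal rose late after withdrawal of leukaemia inhibitory factor (LIF) in each of 3 mouse embryonic stem cell lines was described. The members were chosen by their measured values, from the 25030 probes of the authors' deposited value table, of which they are 0.667%. A probe entered when its change against the same line with LIF was at least 1.25 (log2) at 120 h in each line and its change at 48 h, averaged over the lines, lay between -0.8 and 0.8. The 48 h and 120 h changes were thus selected on and are given as descriptions, with no test.

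The study compared ZHBTc4, an embryonic stem cell line of strain 129/Ola with a tetracycline-regulated oct4 transgene, with lines derived from it. The Oct4 line carries a randomly integrated oct4 construct and the Oct4 VP2 line a randomly integrated oct4-vp16 construct, which joins Oct4 to a viral activation domain. RNA was taken from each line in LIF 24 h after plating, and again once LIF had been absent for 48 h or 120 h, as 2 arrays per group (18 arrays, 9 groups). The series design describes the replicates as independent clones, 2 from each line.

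Both derived lines are described as grown in tetracycline, which switches off the regulated transgene, and as selected with puromycin. The label of the Oct4 cultures with LIF mentions neither agent and calls the modification a knock-in, as for ZHBTc4, whose labels give no tetracycline. Oct4 VP2 was plated at 250000 cells per flask and the other lines at 200000. LIF was withdrawn 24 h after plating, so that loss of LIF and time in culture cannot be told apart.

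LIF signals through gp130 and Stat3 and holds mouse embryonic stem cells in self-renewal, and cells deprived of it leave that state and begin to differentiate over days. Oct4, encoded by Pou5f1, is a transcription factor that the pluripotent state requires. The VP16 domain of herpes simplex virus is a strong activator of transcription and is fused to a factor to make it activate the genes it binds. Probes that rise late report RNAs that accumulate after the first days without LIF.

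The array files do not pair probes with genes, and 0 identifiers matched the mouse gene table used here. Nor do they place the probes in the genome, so gene, exon and position are not given, and stem cell or lineage markers were not analysed here. The probes are therefore shown by sequence. For those the results turn on, 30 of their 60 bases are printed 5′ to 3′, copied from the deposited array files. Probes A and B had the largest mean 120 h changes in the value table; the others were picked after their values were seen, to show each pattern between lines or replicates. Lower case gives the first 30 bases of a probe, and capitals give the first 30 bases of a stretch that a member shares with another probe of the array.
probe A (Z00027602-1): attatgtcactatgcacgcgactttgctaa
probe B (Z00024092-1): atattatgcaaattcccagatctgaagacg
probe C (Z00024159-1): ggatggcagagtggtgtccgagactaatga
pair D (Z00022872-1 and the probe it overlaps): CCCTTGACGCCCATGAACGTTAAGTACGAG
pair E: TCCCGAGCCTGGAAGATAGTCTGAAACTGC
pair F: CATCACGTCTTTGTCTCTAGAGCAGTTTTC
probe G: aaagccctgtggaaaggaaatggaaaactt
probe H: agagcggtgcatgtttttaatcccgatgct
probe I: ctctgttatccaaccacaaggcattcttga
probe J: accctaccagaaaaccaacctgtttactgt

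On the arrays, 62.8% to 75.2% of probes were well above background in the sample channel, and the replicates of a group correlated with r between 0.962 and 0.996 over probes. Slides numbered 5, and scanning took 2 sessions. Every Oct4 VP2 array fell in the first session, together with Oct4 after LIF withdrawal and, at 48 h and at 120 h, the first ZHBTc4 replicate. Values below are log2 ratios of the sample over a common reference RNA, background-corrected and loess-normalised, unless the value table is named. With 2 arrays per group, the number of arrays limits the precision. In bulk RNA, fewer cells of a type and less RNA per cell cannot be told apart.

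The members rose mainly between 48 h and 120 h, by the choice of the rule. In the value table the median change at 120 h was 1.65 in Oct4 VP2, 2.14 in Oct4 and 2.26 in ZHBTc4. The highest single change was 3.33 in Oct4 VP2, 5.72 in Oct4 and 7.24 in ZHBTc4. At 48 h the medians were 0.39, 0.45 and 0.64 in the same order. On this scale the 48 h change averaged over lines was above 0 in 157 of 167 members and above 0.5 in 85. The window applied to that average only, and 107 members lay beyond it in at least 1 line. All 167 were higher at 120 h than at 48 h in every line. Of the 433 probes that met the 120 h threshold in all lines, 265 were left out for a 48 h average above the window and 1 for an average below it. At the 120 h threshold, the nearest members had a smallest change of 1.25, 1.254 and 1.256, and the nearest probes outside had 1.248, 1.248 and 1.247.

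After background correction and loess the same probes rose less. The median 120 h change over the 167 members was 1.00 in Oct4 VP2, 1.45 in Oct4 and 1.53 in ZHBTc4. At 48 h the corrected medians were 0.09, 0.19 and 0.29 in the same order, and 56, 44 and 22 of the 167 lay below 0. At 120 h all 167 still had changes above 0 in each line, the lowest being 0.0086 in Oct4 VP2. Against the thresholds used for tests (adjusted p under 0.05 and at least 2-fold), 74 of 166 tested members were higher at 120 h in Oct4 VP2, where 2.81% of all probes tested were. In Oct4 113 members were higher, against 6.93% of all probes, and in ZHBTc4 112, against 7.51%. Those contrasts were selected on, and these counts describe the list only. Both Oct4 arrays with LIF were scanned in the second session and all Oct4 arrays without it in the first, so no within-session value of the Oct4 changes exists. With session as a block, which ZHBTc4 alone informs, the median over tested members was 0.11 at 48 h (0.19 without the block) and 1.38 at 120 h (1.47 without) in Oct4. One further member (1 of 167) was well above background in no group and was not tested.

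The scales differed most for probes that were dim before the rise. On all 6 arrays with LIF, 112 members were well above background, and 21 were on none of them. For the 112, the median 120 h change in ZHBTc4 was 2.24 in the value table and 1.90 after background correction. For the 21 it was 2.54 in the value table and 0.37 after correction. The value table thus gave the dim probes rises as large as those of bright ones, and the corrected ratios did not. The number of members well above background on both arrays of a group was 121 in ZHBTc4 with LIF (72.5%, against 64.7% of the value table), 130 at 48 h (77.8% against 66.1%) and 159 at 120 h (95.2% against 65.2%). In Oct4 it went from 127 through 143 to 162, where the table had 64.8%, 74.3% and 68.8%. In Oct4 VP2 it went from 124 through 130 to 154, where the table had 68.3%, 69.1% and 72.1%. The rule chose members for a higher value at 120 h than with LIF, which favours such a rise, so these counts describe the list only.

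**Figure D1:**
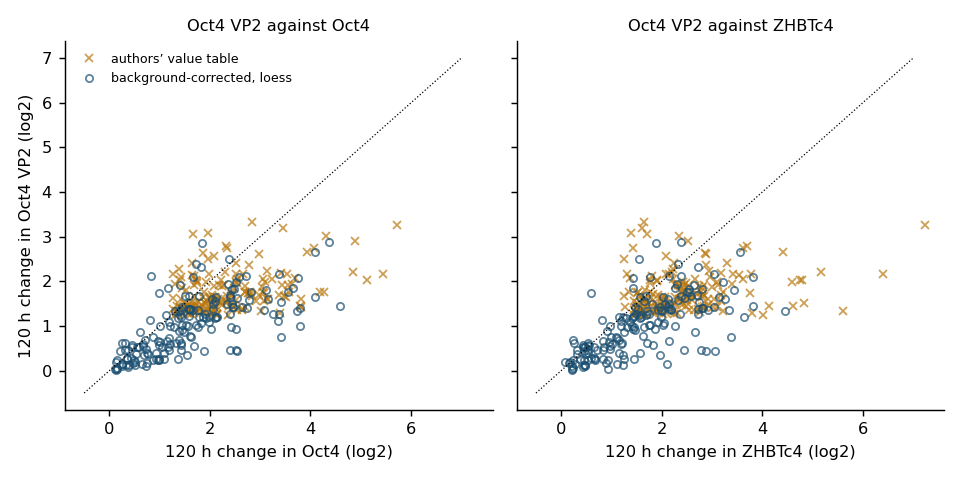
The 120 h change of each member (log2, against the same line with LIF) in Oct4 VP2 on the vertical axis, against Oct4 (left) or ZHBTc4 (right) on the horizontal axis. Crosses are the authors' value table, from which the 167 members were chosen, and circles the background-corrected loess ratios; the dotted line marks equal changes, and most points lie below it.

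Probe A had the largest mean rise in the value table. Its log2 ratios with LIF were -4.31 and -4.48 in Oct4 VP2, -4.47 and -3.92 in Oct4, and -4.05 and -4.16 in ZHBTc4, and it was not well above background on any of these arrays. At 120 h they were -3.64 and -4.28 in Oct4 VP2, -2.58 and -2.04 in Oct4, and -0.92 and -1.20 in ZHBTc4. With LIF the Oct4 arrays overlapped those of both other lines, and both Oct4 VP2 arrays lay below both ZHBTc4 arrays. At 120 h the lines stood apart, with ZHBTc4 highest and Oct4 VP2 lowest. Because the starting signal was a bound, the rise was at least 7.87-fold in ZHBTc4 and at least 3.66-fold in Oct4. No bound is given for Oct4 VP2, where replicate 2 at 120 h, at -4.28, lay just above the level with LIF. Such a bound sets the mean Cy3 signal at 120 h against the higher, on each array, of the probe's own signal and the lowest signal well above background, and is open to dye bias.

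Probe B was also dim with LIF, on both arrays of Oct4 VP2 and of ZHBTc4. Its log2 ratios at 120 h were -3.90 and -4.51 in Oct4 VP2, -2.35 and -2.14 in Oct4, and -1.88 and -1.87 in ZHBTc4, and with LIF all 6 arrays lay between -4.81 and -4.53. The rise was at least 6.05-fold in ZHBTc4, and no bound is given for Oct4 VP2, where replicate 2 at 120 h lay just above the level with LIF. As for probe A, the Oct4 VP2 arrays at 120 h stood below the 4 arrays of the other lines. Among the 21 members dim on every array with LIF, 11 were well above background on both Oct4 VP2 arrays at 120 h and 14 on both ZHBTc4 arrays.

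The comparisons between lines at one time were not part of the rule, which set the same threshold in each line. They are not independent of it, because the rule selected on changes against LIF measured on the same arrays. The threshold also did not bear equally on the lines. In the value table the smallest 120 h change was in Oct4 VP2 for 120 members, in Oct4 for 28 and in ZHBTc4 for 19. Counts, medians and adjusted p-values of the line comparisons thus describe the chosen members. How far the rule shaped them was not tested. Oct4 VP2 was the line in which the members stood lowest. The median over members, relative to ZHBTc4 with LIF, was 0.52 ± 0.18 (SD, n = 2 arrays) in Oct4 VP2 at 120 h, 1.57 ± 0.18 in Oct4 and 1.5 ± 0.09 in ZHBTc4. At 48 h it was -0.07 ± 0.06, 0.22 ± 0.09 and 0.31 ± 0.04 in the same order. With LIF it was -0.17 ± 0.05 in Oct4 VP2 and 0.08 ± 0.14 in Oct4. At 120 h the Oct4 VP2 arrays lay below the 4 arrays of the other lines, which overlapped each other.

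**Figure D2:**
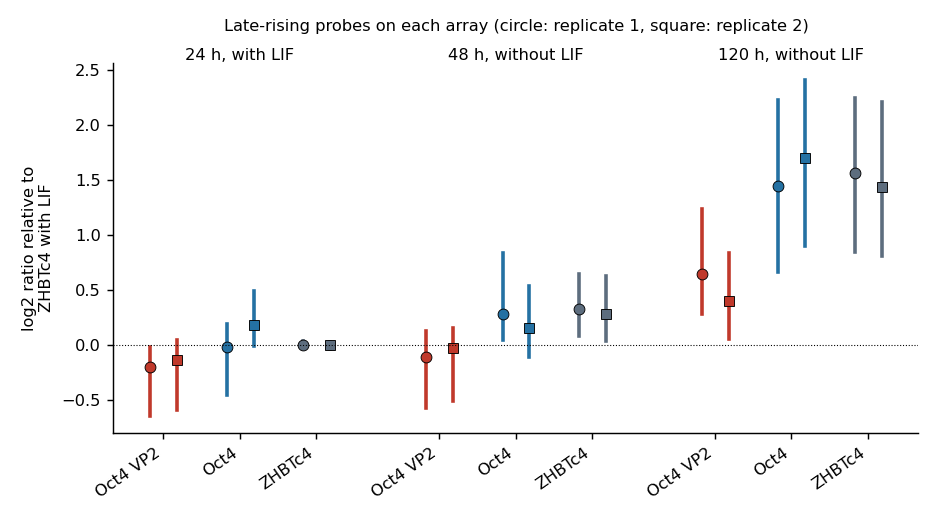
Level of the 167 members on each of the 18 arrays, as the log2 ratio of each member minus its mean in ZHBTc4 with LIF. Symbols are medians over members, bars the quartiles, circles replicate 1 and squares replicate 2; at 120 h the group means of the medians were 0.52 in Oct4 VP2, 1.57 in Oct4 and 1.5 in ZHBTc4.

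At 120 h, 72 of 166 members were lower in Oct4 VP2 than in Oct4 and 0 were higher, where 10.2% of all probes passed the threshold in either direction. The median difference over members was -0.88, and 150 of 166 lay below 0. Over all probes, 1633 were higher and 1592 lower, with a median of -0.02. Against ZHBTc4, 64 members were lower and 0 higher, where 9.96% of all probes passed, with a median difference of -0.80. In the Oct4 comparison the members' share past the threshold was thus 43.4%, and in the ZHBTc4 comparison 38.6%. For 48 members (28.9%) the level was lower than in both lines, where 2.72% of all probes were. Few of all probes were themselves higher at 120 h than with LIF (2.81% in Oct4 VP2, 6.93% in Oct4 and 7.51% in ZHBTc4). Shares over all probes are therefore no matched baseline for the members. The shares among probes past the rule's 120 h threshold were not computed.

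The separation was visible without a model. In 118 of 167 members both Oct4 VP2 arrays at 120 h lay below all 4 arrays of Oct4 and ZHBTc4, which is 70.7% of them against 22.0% of all probes tested. In 4 members both lay above, and the share of all probes that did so was not computed. With the arrays of the first scan session alone, 72 members were lower than in Oct4 at 120 h, where 10.1% of all probes passed. Against ZHBTc4 62 were lower, where 9.38% passed, but ZHBTc4 then has 1 array per time, which is assumed to vary like the other groups.

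At 48 h, 40 members were lower in Oct4 VP2 than in Oct4 and 2 were higher, where 6.11% of all probes passed in either direction. Without replicate 1 of Oct4 at 48 h, the 42 members past the threshold became 22. Against ZHBTc4, 35 were lower and 0 higher, where 5.89% of all probes passed. Restricted to the first session, 36 members were lower and 2 higher than in Oct4, where 5.91% of all probes passed. Against the single ZHBTc4 array of that session, with its spread again taken from other groups, 30 were lower, where 6.17% passed. Of the 72 members lower than in Oct4 at 120 h, 35 were already lower at 48 h. Of the 64 lower than in ZHBTc4 at 120 h, 28 were. The matching shares over all probes were not computed, so whether this is particular to the members is not known.

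The rule subtracts the level with LIF, so a low reading there in Oct4 VP2 favoured entry into the set. How far this raised the counts of this paragraph was not tested. With LIF, before withdrawal, 18 members were lower in Oct4 VP2 than in Oct4 and 1 was higher, where 4.1% of all probes passed. That count of 19 became 43 with the scanner's processed signals and 41 with the value table. It became 32 without replicate 1 of Oct4 with LIF, 10 without its replicate 2, and 11 without replicate 1 of Oct4 VP2 with LIF. Against ZHBTc4, 21 were lower and 0 higher, where 3.38% of all probes passed. That count became 11 without either Oct4 VP2 array with LIF, and 5 or 7 without replicate 1 or 2 of ZHBTc4 with LIF. All Oct4 VP2 arrays with LIF were scanned in the first session and all others with LIF in the second, so that line and session cannot be told apart within a session there. With session as a block in the fit, 11 members passed against ZHBTc4, and with slide as a random block 13. Of the members lower at 120 h, 14 were also lower with LIF in the Oct4 comparison and 20 in the ZHBTc4 comparison. For these counts, too, the shares over all probes were not computed.

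**Figure D3:**
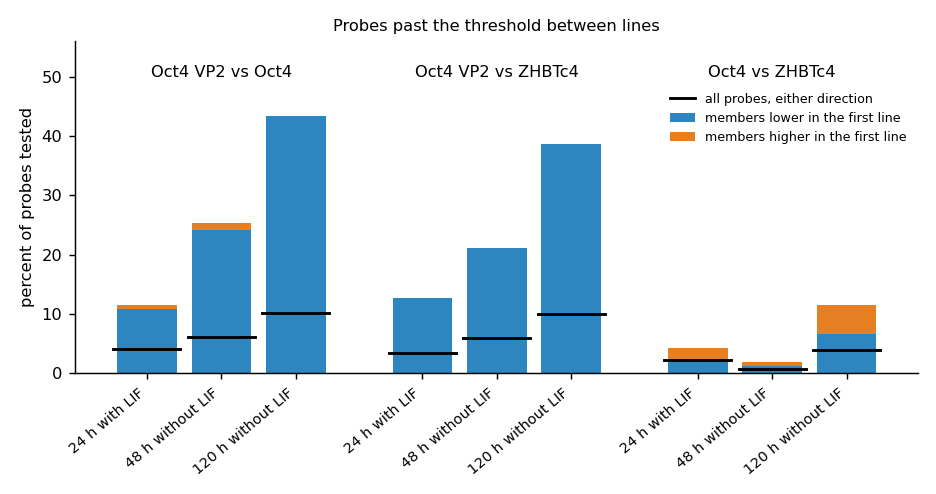
Percent of the 166 tested members lower (blue) or higher (orange) in the first-named line, for the 9 comparisons of lines at one time (limma, adjusted p under 0.05 and at least 2-fold). Black lines give the percent of all probes past the same threshold in either direction; in the comparisons of Oct4 VP2 the bars rise from 11.4% to 43.4% against Oct4 and from 12.7% to 38.6% against ZHBTc4.

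Oct4 and ZHBTc4 differed in fewer members. With LIF, 3 members were higher in Oct4 and 4 lower, where 2.17% of all probes passed. That count of 7 became 4 without either ZHBTc4 array with LIF and 11 without replicate 2 of Oct4 with LIF. At 48 h, 1 was higher and 2 were lower, where 0.75% of all probes passed. Those 3 became 1 without replicate 1 of ZHBTc4 at 48 h, and none passed without its replicate 2 or without replicate 2 of Oct4. At 120 h, 8 were higher and 11 lower, where 3.94% of all probes passed. The median differences over members at the 3 times were 0.08, -0.04 and 0.05. Over the 9 comparisons, 72 of 166 members (43.4%) passed the threshold in none, against 79.5% of all probes. The offset in the correction makes 2-fold harder to reach for dim probes.

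In 7 members (4.22%) Oct4 VP2 was lower than both lines at every time, where 0.151% of all probes were. Probe J is among those of the 7 whose replicates lay close together. Its log2 ratios were -2.92 and -2.89 with LIF in Oct4 VP2, -2.74 and -3.15 at 48 h, and -1.14 and -1.40 at 120 h. In Oct4 they were -1.94 and -1.86, then -1.53 and -1.29, then 0.14 and 0.33. In ZHBTc4 they were -1.22 and -1.22, then -0.89 and -0.52, then 0.63 and 0.96. The lines did not overlap at any time, and Oct4 VP2 at 120 h had reached about the level of ZHBTc4 with LIF. At 120 h it was lower than Oct4 by a log2 difference of -1.5 (SE 0.17, limma adjusted p = 2.3e-05) and than ZHBTc4 by -2.06 (SE 0.17, adjusted p = 2e-06).

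Probe C had the largest differences at 120 h among these 7. Its log2 ratios in Oct4 VP2 were -5.16 and -5.01 with LIF, -5.33 and -5.02 after 48 h, and -0.89 and -3.98 at 120 h. In Oct4 they were -3.48 and -0.94 with LIF, -0.88 and -3.31 after 48 h, and 2.01 and 1.75 at 120 h. In ZHBTc4 they were -1.07 and -1.20 with LIF, -0.83 and -0.07 after 48 h, and 2.44 and 2.42 at 120 h. The replicates lay far apart in Oct4 VP2 at 120 h and in Oct4 at the earlier times. Oct4 VP2 at 120 h was lower than Oct4 by -4.31 (SE 0.95, limma adjusted p = 0.0032) and than ZHBTc4 by -4.86 (SE 0.95, adjusted p = 0.0015). Here and for the other probes the SE pools the spread of all 9 groups. It therefore does not measure the wide gap between the Oct4 VP2 arrays at 120 h.

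Other members departed from that order. Probe H was lower in Oct4 than in ZHBTc4. Its ratios in Oct4 were -5.25 and -4.83 with LIF and -2.51 and -1.25 at 120 h. In ZHBTc4 they were -2.76 and -2.76 with LIF and 0.33 and 0.69 at 120 h. The difference was -2.28 with LIF (SE 0.40, limma adjusted p = 0.0035) and -2.39 at 120 h (SE 0.40, adjusted p = 0.0014). Oct4 VP2, at -3.93 and -3.31 with LIF, lay between those lines and was the 1 case of a member higher than in Oct4 with LIF, by 1.42 (SE 0.40, adjusted p = 0.025).

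Probe I went the opposite way between the same lines. Its ratios at 120 h were 0.45 and 1.08 in Oct4, -1.07 and -2.01 in ZHBTc4, and -1.07 and -2.74 in Oct4 VP2. With LIF its 6 arrays lay between -3.13 and -2.25, and the lines overlapped. At 120 h Oct4 exceeded ZHBTc4 by 2.30 (SE 0.46, limma adjusted p = 0.0041) and Oct4 VP2 was lower than Oct4 by -2.67 (SE 0.46, adjusted p = 0.00057). The difference of Oct4 VP2 from ZHBTc4, at -0.37 (SE 0.46, adjusted p = 0.60), did not pass.

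The spread between replicates was itself wider in these members than elsewhere in certain groups. In Oct4 VP2 at 120 h, 25 of 167 members differed at least 2-fold between the arrays, which is 15.0% against 1.74% of all probes tested, and replicate 1 was the higher in all 25. In Oct4 with LIF, 22 members did (13.2% against 1.28%), all with replicate 2 higher. In Oct4 at 48 h, 11 did (6.59% against 0.432%), all with replicate 1 higher. In each of the other 6 groups at most 7 members did. The members' share was also above that of all probes in ZHBTc4 at 120 h (4.19% against 1.45%). The same held in Oct4 at 120 h (1.2% against 0.24%), and in the remaining groups the members' share was the lower. The arrays behind the 3 groups with the most such members are different ones. Each group is a single pair of arrays, so that no test was made. The rule used the means of these same arrays, so a single high array at 120 h or low array with LIF favoured entry. All probes are thus no matched baseline for these shares, and how far the rule raised them was not tested.

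The lists overlapped among the members and over all probes. Of the 11 that differed in Oct4 at 48 h, 10 (90.9%) were among the 22 that differed in Oct4 with LIF, of which they are 45.5%. Over all probes the same lists held 92 and 279 probes and shared 50, which is 54.3% and 17.9% of them. Of the 25 in Oct4 VP2 at 120 h, 16 (64.0%) were also in the list of Oct4 with LIF, of which they are 72.7%. Over all probes the lists held 407 and 279 and shared 118, which is 29.0% and 42.3%. In all 3 lists were 9 members, probe C and the member of pair E among them, of 35 probes in all. Whether the overlap is larger among members than elsewhere was not tested. The labels name the cultures of Oct4 with LIF as 4 and 5 and give no such number at the later times, so the clone behind each replicate is not known across times.

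For the 25 members, the median level relative to ZHBTc4 with LIF was -1.46 and -1.10 in Oct4 VP2 with LIF, and -1.14 and -1.12 at 48 h. At 120 h it was 1.13 on replicate 1 and -0.72 on replicate 2. In Oct4 it was -0.58 and 0.48 with LIF, 1.20 and 0.35 after 48 h, and 2.49 and 2.60 at 120 h. In ZHBTc4 it was 0.32 and 0.70 at 48 h and 2.09 and 2.13 at 120 h. The 25 were thus low on both Oct4 VP2 arrays of the earlier times, whereas at 120 h replicate 1 alone was above the ZHBTc4 level with LIF. The remaining members had medians of 0.57 and 0.53 on the same 120 h arrays, an agreement that the choice of the 25 fixes in part. Of the 72 members lower in Oct4 VP2 than in Oct4 at 120 h, 22 were among the 25 and 50 were not. The same split over all probes was not computed.

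**Figure D4:**
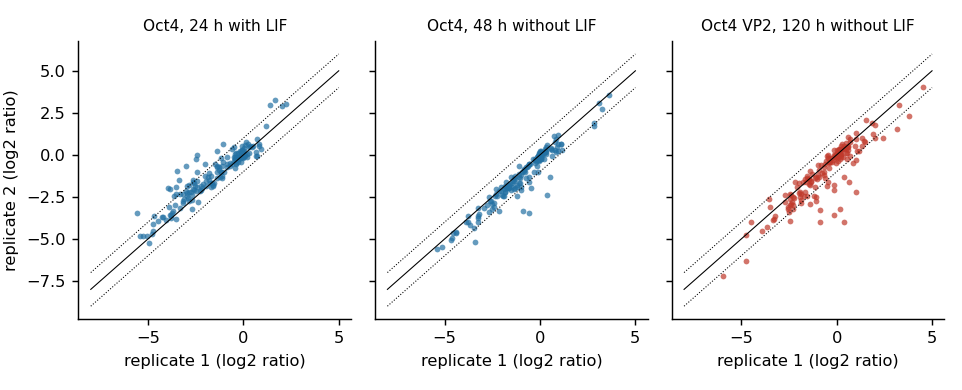
Log2 ratio of each of the 167 members on replicate 1 (horizontal) and replicate 2 (vertical) in the 3 groups where most members differed between replicates. The solid line marks equal values and the dotted lines a 2-fold difference; 22, 11 and 25 members lie beyond it from left to right, on one side in each panel.

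Probe G had the widest gap between arrays of a group. In Oct4 VP2 at 120 h its ratios were 0.36 and -3.97, after -4.37 and -4.26 with LIF and -4.17 and -4.13 at 48 h. In Oct4 they were -3.95 and -2.0 with LIF, -0.57 and -3.48 after 48 h, and -0.48 and -0.70 at 120 h. In ZHBTc4 they were -2.01 and -1.83 with LIF, -1.64 and -1.26 after 48 h, and 0.05 and -0.80 at 120 h. Replicate 1 of Oct4 VP2 at 120 h thus stood above every other array, and replicate 2 near the level with LIF. The difference of Oct4 VP2 from Oct4 at 120 h was -1.21 (SE 1.13, from the spread pooled over groups, limma adjusted p = 0.44).

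Overlapping probes read some of the same sequences again. For 11 members another probe of the array shared between 33 and 59 of the 60 bases, and none of these partners was a member or in the value table. All 11 partners rose at 120 h in the 3 lines, by 0.55 to 3.87, and 8 rose by at least 1 in each. The mean 48 h change of all 11 lay within the window. Over the 33 values compared (11 pairs in 3 lines), member and partner differed by a median of 0.16 and at most 0.71. The partners were not chosen by the rule, but they were read on the same arrays from the same RNA.

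Partners were also compared between lines. Of 99 comparisons (11 pairs, 9 comparisons of lines), 23 passed the threshold in the member and 24 in the partner. In 23 both passed, each time in the same direction. Over all 99, the signs matched in 92 and differed in 7, and member and partner differed by a median of 0.14 and at most 1.15. Pair D shared 56 bases. Its member had ratios of -0.57 and -0.42 with LIF in Oct4 VP2, -0.74 and -0.66 at 48 h, and 3.19 and 1.56 at 120 h. The partner had -0.98 and -0.53, then -0.72 and -0.75, then 3.11 and 1.51. In ZHBTc4 at 120 h the member had 4.05 and 4.53 and the partner 4.13 and 4.57. Both probes gave a late rise in Oct4 VP2 that was larger on replicate 1. At 48 h the member was lower in Oct4 VP2 than in Oct4 by -4.27 (SE 0.48, limma adjusted p = 6e-05) and the partner by -4.17 (SE 0.50, adjusted p = 9e-05).

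Pair E shared 33 bases and was low in Oct4 VP2 from the start. With LIF its member had -3.54 and -3.39 in Oct4 VP2, -3.0 and -0.65 in Oct4, and 0.87 and 0.78 in ZHBTc4. At 120 h it had 1.02 and -2.18 in Oct4 VP2, 2.55 and 2.55 in Oct4, and 2.90 and 3.53 in ZHBTc4. The partner at 120 h had 1.02 and -1.38, then 2.55 and 2.68, then 3.38 and 3.96. At 120 h Oct4 VP2 was lower than ZHBTc4 by -3.79 in the member (SE 0.88, limma adjusted p = 0.0048) and -3.85 in the partner (SE 0.66, adjusted p = 0.00063). These SEs also pool the spread of all groups, whereas the Oct4 VP2 arrays at 120 h lay far apart.

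Pair F shared 44 bases and rose most in Oct4. Its member went from -4.97 and -5.23 with LIF to -2.0 and -1.46 at 120 h in Oct4, and the partner from -5.0 and -5.27 to -1.5 and -1.28. In Oct4 VP2 the member went from -4.75 and -3.93 to -3.53 and -2.60. At 120 h Oct4 VP2 was lower than Oct4 by -1.33 in the member (SE 0.32, limma adjusted p = 0.006) and -1.80 in the partner (SE 0.33, adjusted p = 0.001). At that time Oct4 and ZHBTc4 overlapped in the member and differed by 0.05 (SE 0.32, adjusted p = 0.94).

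**Figure D5:**
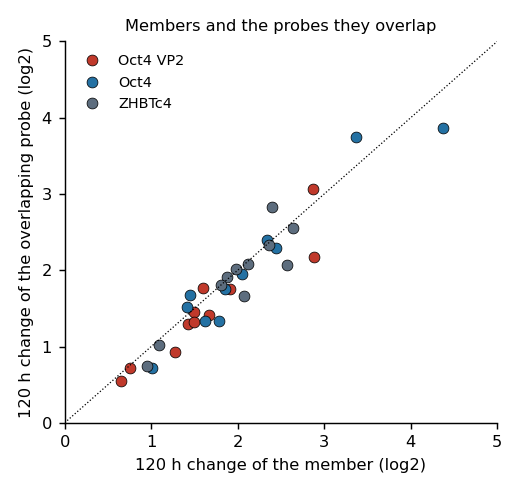
Change at 120 h against LIF (log2) of the 11 members that share bases with another probe (horizontal) and of that probe (vertical), in each of the 3 lines. The dotted line marks equal changes; the 33 points lie within 0.71 of it.

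By base composition the members resembled the array. The median GC content of the 60 bases was 43.3% in members and 43.3% in the whole value table. The motif AATAAA, the polyadenylation signal, was in 8.98% of members on the printed strand and in 7.9% of the table. The AU-rich motif ATTTA was in 8.38% of members and 7.73% of the table. A reading frame without a stop codon ran through 79.0% of members and 82.0% of the table. These shares lay close together.

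In the reference channel, 82.6% of members were well above background on all 18 arrays, against 63.3% of the table. The median change of the Cy5 signal between 120 h and LIF over members was 0.025 in Oct4 VP2, 0.071 in Oct4 and 0.0025 in ZHBTc4. The largest single change of either sign was 1.33 in Oct4 VP2, 1.33 in Oct4 and 3.0 in ZHBTc4. A Cy5 rise of at least 1 was seen in 0 members in Oct4 VP2, 1 in Oct4 and 3 in ZHBTc4. The change of 1.33 in Oct4 VP2 was thus a fall, which raises a ratio of sample over reference. Falls of at least 1 were not counted.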

How the data were processed

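The 18 arrays were two-colour Agilent arrays, with the sample in Cy3 and a pooled mouse reference RNA in Cy5, per the labels. Agilent Feature Extraction 9.5.1.1 produced the deposited files, per the file headers, which give each spot's intensity and background in both channels and the log10 ratio, Cy5 over Cy3. The sign of that ratio was turned here, to sample over reference. A value table with log10 values for 25030 probes was deposited as well. Once each probe was centred, 100% of it lay within 0.001 of the turned log10 ratios, which leaves unknown any constant added to a probe. Membership was computed from that table, taken to log2. The members and lists were chosen with earlier results of these data known.

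For tests, intensities were background-corrected (normexp, offset 50) and loess-normalised within arrays in limma 3.58.1 (R 4.3.3), without flagged spots, and spots of a probe were averaged. A probe had to be well above background in Cy3 in both replicates of some group, which kept 31728 of 42006. One mean per group was fitted over 18 arrays, with eBayes and Benjamini-Hochberg adjustment over all probes kept. The threshold for a call was 0.05 on the adjusted p together with 2-fold. The fit was tested on simulated data. Overlaps between probes needed at least 20 shared bases.

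Replicate numbers did not pair samples between lines. Over probes, the deviations of same-numbered arrays of different lines at one time correlated with r between -0.186 and 0.091. Pairing across times within a line was not measured. The alternatives were other signals and scalings, filters, blocks, rule settings and leaving out each replicate; counts from the first session alone and outside the members that differed between replicates were added after seeing the data. The planned gene lists, naming and markers were not analysed here, because the files do not pair probes with genes; probes A and B follow the naming rule's order by mean 120 h change. Per the series design, the submitters tested at a false discovery rate of 0.05 and 2-fold.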

Additional observations from a re-analysis of the deposited data

How the results depend on the processing

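In every alternative run, more members were lower than higher in Oct4 VP2 at 48 h and at 120 h, against Oct4 and against ZHBTc4: at 120 h the counts stayed within 1.5 times 72 and 64 under every alternative run. With the processed signals or the value table, the members passing with LIF rose to 43 and 41 between Oct4 VP2 and Oct4, and to 16 and 16 between Oct4 and ZHBTc4. With slide as a random block, 13 passed between Oct4 VP2 and ZHBTc4 with LIF and 1 between Oct4 and ZHBTc4 at 48 h. With scan session as a block, 11 passed between Oct4 VP2 and ZHBTc4 with LIF, and the median 120 h change was 1.43 in ZHBTc4 and 1.38 in Oct4, whose median 48 h change went from 0.19 to 0.11. Leaving out 1 replicate gave 10 to 32 for Oct4 VP2 against Oct4 with LIF, 5 to 23 against ZHBTc4 with LIF, 4 to 11 for Oct4 against ZHBTc4 with LIF, 22 to 46 for Oct4 VP2 against Oct4 at 48 h, and 0 to 4 for Oct4 against ZHBTc4 at 48 h. With the replicate block the counts at 120 h were 72, 64 and 18, and no count moved by over 1.5 times. The causes were not tested.

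The medians over the 166 tested members moved more between scales. At 48 h the median was 0.10 in Oct4 VP2, against 0.40 with processed signals, 0.39 in the value table and 0.23 for probes well above background on all 18 arrays. In ZHBTc4 it was 0.29, against 0.64, 0.64 and 0.51. At 120 h it was 1.00 in Oct4 VP2, against 1.65, 1.65 and 1.34, and 0.77 to 1.19 without 1 replicate. In Oct4 it was 1.47, against 2.14, 2.14 and 1.84, and in ZHBTc4 1.54, against 2.26, 2.26 and 1.91, and 1.44 to 1.57 without 1 replicate.

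The number of members follows the rule's settings. It was 315 with a 120 h change of at least 1, 95 with at least 1.5, 82 with a 48 h window of 0.5, and 60 with the window on each line. Applied to the corrected ratios, the rule gave 83 probes, 59 of them members. Probes near background limit what can be said: 21 members have only a bound with LIF.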

Other observations

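Outside the value table, 81 of 16976 further probes of the array met the same rule on the processed signals, and 9 of these overlap a member. No member was saturated in Cy3 on any array. On the strand opposite to the printed one, a reading frame without a stop codon ran through 83.2% of members and 78.4% of the value table.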
